A study of Mus musculus with 6 samples.

Results

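Lysyl oxidases and the enzymes that trim the C-terminal ends of procollagens were followed in MC3T3-E1, a pre-osteoblast cell line from mouse, with and without a short hairpin RNA (shRNA) against Hdac4. The group holds 9 of the 53801 genes counted in each library, and its members were chosen by symbol, matched to the Ensembl gene identifiers of the count tables. They are the 5 lysyl oxidases Lox, Loxl1, Loxl2, Loxl3 and Loxl4, the 2 tolloid proteinases Bmp1 and Tll1, and the 2 procollagen C-proteinase enhancers Pcolce and Pcolce2.

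Fibrillar collagens leave the cell as procollagens with globular ends, and they assemble into fibrils only after those ends have been cut off. BMP1 and its relatives cut the C-terminal end, PCOLCE and PCOLCE2 bind that end and speed the cut, and BMP1 also releases active LOX from its proenzyme. Lysyl oxidases are secreted copper enzymes that oxidise lysine side chains of collagen and elastin, from which the covalent cross-links of bone, skin and vessel walls form.

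The question of the design was how the transcriptome of these cells differs after Hdac4 knockdown. The 3 Control libraries came from MC3T3-E1 cells carrying a lentivirus with a scrambled, non-silencing RNA, and the 3 Hdac4-knockdown libraries from cells carrying the lentivirus with an Hdac4-shRNA, which the study's methods give as Hdac4-shRNA3. Cells of both groups were selected in puromycin at 5 μg/mL for 7 days, and the vector also carries a ZsGreen1 reporter. Only 1 hairpin was sequenced, the cells are a line kept in culture medium with serum, and poly-A RNA of whole cultures was measured, so that fewer cells of a kind and less RNA per cell cannot be told apart.

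The hairpin targets are shown because they define the groups. Capitals mark the letters that would pair with bases 2 to 8 of the guide strand if the guide starts opposite the last letter, a processing that was not measured here.
Hdac4-shRNA3: gcatgaggcacagTTGCATGa
scrambled: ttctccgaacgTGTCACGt
The 21-base Hdac4-shRNA3 sequence shared runs of at most 9 bases with any transcript of the 9 genes, and its capital letters occur in 1 of 7 Bmp1, 2 of 4 Tll1 and 1 of 2 Pcolce2 transcripts and in none of the transcripts of the other 6 genes. Among all genes tested, 24.2% hold these letters in a transcript. The capital letters of the scrambled sequence occur in 2 of 2 Loxl2 transcripts and in no transcript of the other members, against 9.97% of all genes tested.

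The lysyl oxidases are close relatives, and the stretch of coding sequence around their copper-binding histidines is shown because reads must be assigned to the right paralog at such places. Capitals mark the 20 of 33 bases that are the same in all sequences printed, read from GENCODE M21 transcripts (GRCm38), each across an exon junction.
Loxl1: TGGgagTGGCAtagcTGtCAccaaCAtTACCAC
Loxl2: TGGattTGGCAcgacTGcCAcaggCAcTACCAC
Loxl3: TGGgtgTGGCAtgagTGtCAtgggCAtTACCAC
Loxl4: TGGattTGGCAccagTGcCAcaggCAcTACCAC
Loxl2 and Loxl4 differed at 2 of the 33 bases, whereas Loxl1 and Loxl4 differed at 12. The longest run of identical bases between any 2 of the 5 lysyl oxidase genes was 32 bases, shared by Lox and Loxl1. The 28-base run shared by Loxl1 and Loxl2, cacaaggccagcttctgcctggaggaca, lies in coding sequence, in exon 4 of Loxl1 transcript ENSMUST00000061799 (chr9:58293626-58293653, minus strand) and exon 11 of Loxl2 transcript ENSMUST00000022660 (chr14:69689101-69689128, plus strand).

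The tolloid proteinases were compared in the same way over the stretch that holds the zinc-binding histidines, which lies within a single exon. Here capitals mark the 25 of 33 bases shared by Bmp1, Tll1 and their relative Tll2, and only Bmp1 of the 3 was counted at more than trace level.
Bmp1: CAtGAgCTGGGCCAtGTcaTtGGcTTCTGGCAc
Tll1: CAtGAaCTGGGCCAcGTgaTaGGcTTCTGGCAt
Tll2: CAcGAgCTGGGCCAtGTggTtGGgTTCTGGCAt
The Bmp1 stretch is at chr14:70508060-70508092 in exon 5, the Tll1 stretch at chr8:64101898-64101930 in exon 6 and the Tll2 stretch at chr19:41130541-41130573 in exon 6, all on the minus strand. The longest identical run was 23 bases between Bmp1 and Tll1 and 12 bases between Pcolce and Pcolce2.

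Each library held between 29096544 and 31651826 reads counted on genes. Hdac4 itself was at 40.3 ± 0.412 CPM (SD, n = 3) in Control and 29.6 ± 0.981 CPM (SD, n = 3) in Hdac4-knockdown libraries, 73.6% of the control level, where CPM is the count scaled to the TMM-normalised library size. Of its 15813 exon bases, 3536 are shared with Gm26720 on the opposite strand. Markers of the osteoblast lineage gave an uneven picture. Alpl had at most 3 counts in every library. In Control libraries Ibsp had 0, 0 and 0 counts, Bglap 0, 1 and 1, and Sp7 4, 7 and 2. In Hdac4-knockdown libraries Ibsp had 4, 6 and 7 counts, Bglap 3, 12 and 6, and Sp7 74, 112 and 68. Runx2 averaged 69.9 CPM in Control and 79.5 CPM in Hdac4-knockdown libraries. The summed level of the 6 markers was 3196 to 3258 CPM in Control and 2095 to 2167 CPM in Hdac4-knockdown libraries, most of it Spp1. Of the 6 markers, 2 were called higher and 1 lower. The 4 myoblast markers Myod1, Myog, Myf5 and Des were all called lower, with a summed level of 828 to 867 CPM in Control and 111 to 126 CPM in Hdac4-knockdown libraries, and the part of such shifts in the values below was not tested. Summed markers of endothelial cells, macrophages and epithelium were at 3.13 CPM or less in every library. The endothelial sum was 0.262 to 0.386 CPM in Control and 2.7 to 3.12 CPM in Hdac4-knockdown libraries, mostly Pecam1. The macrophage sum was 1.6 to 2.59 CPM and 2.69 to 3.13 CPM, and the epithelial sum 0.491 to 0.969 CPM and 0.565 to 0.905 CPM. Summed adipocyte markers went from 27.3 to 29.6 CPM in Control to 3.07 to 4.52 CPM, nearly all of it Pparg. Those of smooth muscle went from 311 to 314 CPM to 141 to 161 CPM, nearly all of it Acta2. The chondrocyte sum, at 125 to 128 CPM and 168 to 185 CPM, rested on Sox9 at 126 and 127 CPM and on Col2a1 at 0.827 and 51.1 CPM, with Acan at 0 counts in all libraries. The fibroblast or mesenchymal sum was 10433 to 10932 CPM in Control and 9842 to 10348 CPM in Hdac4-knockdown libraries. Most of it was Vim, at 10426 and 9054 CPM on average. Of these 5 markers, 3 were called higher and 1 lower. Pdgfra averaged 39.5 and 207 CPM, Pdgfrb 139 and 492 CPM and Prrx1 158 and 304 CPM in Control and Hdac4-knockdown libraries.

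In Hdac4-knockdown cells, the lysyl oxidases moved apart from each other: Lox and Loxl4 were higher, Loxl2 and Loxl1 were lower, and Loxl3 was at nearly the same level. Loxl2 fell to 0.366% of its control level, Lox rose 3.96-fold and Loxl4 rose 6.59-fold. The C-processing genes moved less, with Pcolce higher and Bmp1 and Pcolce2 lower. Of the 8 members with enough counts for a test, 3 were called higher and 4 lower (edgeR quasi-likelihood F test, Benjamini-Hochberg adjusted p below 0.05 and a log2 fold change beyond 0.05). Among the 14531 genes tested, 38% were called higher, 37.1% lower and 75.1% in either direction, so that the 7 calls among 8 genes stand against a background where most genes changed. The median log2 fold change was -0.11 over the 8 members and 0.01 over all genes, and its median size was 1.13 and 0.46. With the threshold at a log2 fold change of 1, 2 members remained higher and 2 lower, against 16.5% and 10.6% of all genes. The 3 libraries of each group did not overlap for 7 of the 8 members, against 76.8% of all genes tested.

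**Figure D1:**
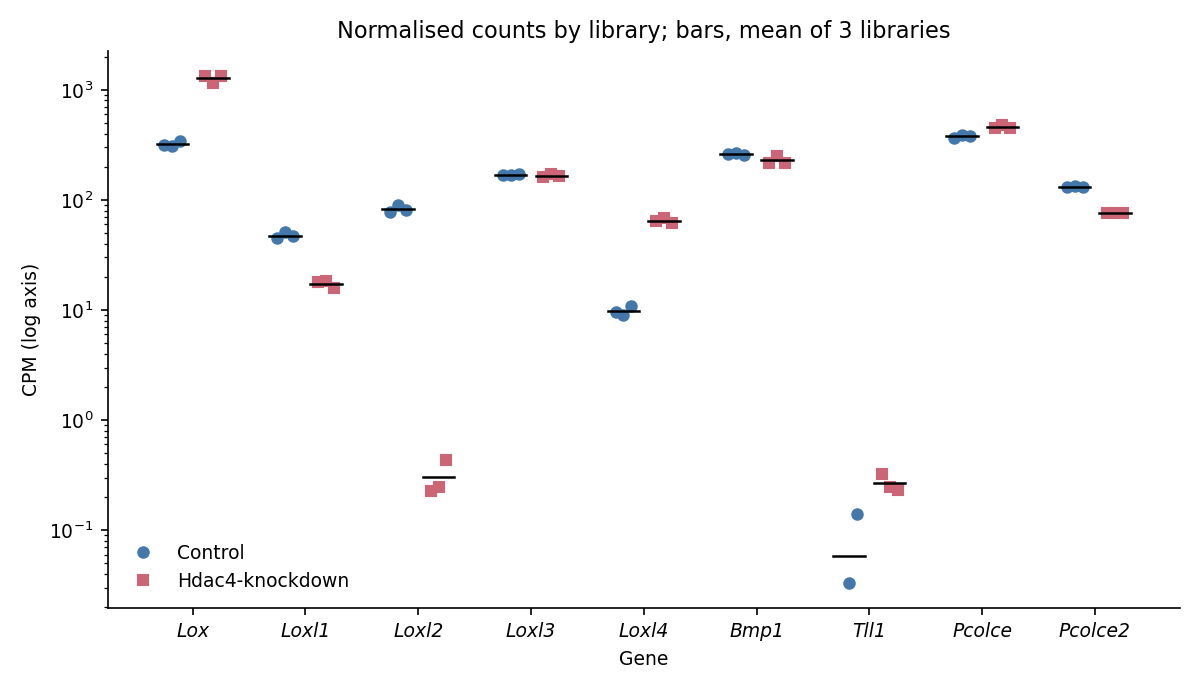
Normalised counts (CPM, log axis) of the 9 genes, with circles for the 3 Control libraries, squares for the 3 Hdac4-knockdown libraries and a bar at each group's mean; a value of 0 (Tll1 in 1 Control library) cannot be drawn on this axis. Loxl2 falls from 82.5 to 0.302 CPM on average, and Loxl3 is the gene whose groups overlap.

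Loxl2, which carries scavenger receptor domains and acts on collagen IV of basement membranes as well as on fibrillar collagen, showed the widest gap. It lies at chr14:69609068-69695834 on the plus strand (ENSMUSG00000034205). Its counts were 2382, 2667 and 2295 in Control and 7, 8 and 13 in Hdac4-knockdown libraries, or 78, 89.1 and 80.5 CPM against 0.226, 0.248 and 0.432 CPM. The groups were far apart, and the transcript was still detected in every knockdown library. On the log2 scale it fell by 8.08 (SE 0.277, 95% interval -8.63 to -7.54, adjusted p = 5.1e-21), the 15th lowest of the 14531 genes. Of its 5405 exon bases, 308 are shared with Gm27177 on the opposite strand and with Mir6950, and Gm27177 itself had 0 counts in all 6 libraries. Reads on shared bases may have been set aside as ambiguous, so these counts do not tell what the shared bases gave.

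Loxl1, which is known for its part in elastic fibre upkeep, fell as well, to 36.6% of its control level. Its level was 44.6, 50.8 and 46.8 CPM in Control and 17.9, 18.2 and 15.9 CPM in Hdac4-knockdown libraries. Every knockdown library was below every control library, with little spread within either group. On the log2 scale the change was -1.45 with an SE of 0.0702 (adjusted p = 2.83e-13), and the gene (chr9:58287738-58313186, minus strand) shares no exon base with another annotated gene.

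Lox, the founding member of the family, is required for cross-linking of bone collagen and was the lysyl oxidase with the highest level per length in both groups. Its level was 315, 309 and 341 CPM in Control libraries and rose to 1330, 1153 and 1333 CPM in Hdac4-knockdown libraries. Even the lowest knockdown library, replicate 2, was far above the highest control library. For Lox the log2 fold change was 1.98 (SE 0.0512, 95% interval 1.88 to 2.08, adjusted p = 2.08e-17). The gene lies at chr18:52516067-52529867 on the minus strand and shares 30 of 4778 exon bases with an antisense gene.

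Loxl4, another member with scavenger receptor domains, had the lowest level of the 5 lysyl oxidases in Control libraries and the largest fold increase among them. It was counted 295, 267 and 308 times in Control and 1981, 2184 and 1865 times in Hdac4-knockdown libraries, which is 9.65, 8.92 and 10.8 CPM against 64, 67.8 and 62 CPM. The groups were far apart, and the libraries within each were close together. Its log2 fold change was 2.72 (SE 0.0736, 95% interval 2.58 to 2.87, adjusted p = 1.75e-17). The gene lies at chr19:42593982-42612813 on the minus strand and shares no exon base with another gene.

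Loxl3, which is needed for palate and vertebral development, was counted at close to the same level in both groups, with 169, 167 and 172 CPM in Control and 162, 172 and 164 CPM in Hdac4-knockdown libraries. Knockdown replicate 2 was level with the control libraries, and knockdown replicates 1 and 3 lay just below them. Its log2 fold change was -0.03 with an SE of 0.0411 (adjusted p = 0.503), and its 95% interval of -0.11 to 0.05 leaves room only for small differences under this normalisation. Upper quartile normalisation gave 0.06 (adjusted p = 0.21), so its sign is not set. Of its 4603 exon bases, 535 are shared with Htra2 on the opposite strand, a gene at 64.1 CPM in Control and 53.7 CPM in Hdac4-knockdown libraries (log2 fold change -0.26, adjusted p = 0.000976), and the reads carry no strand.

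**Figure D2:**
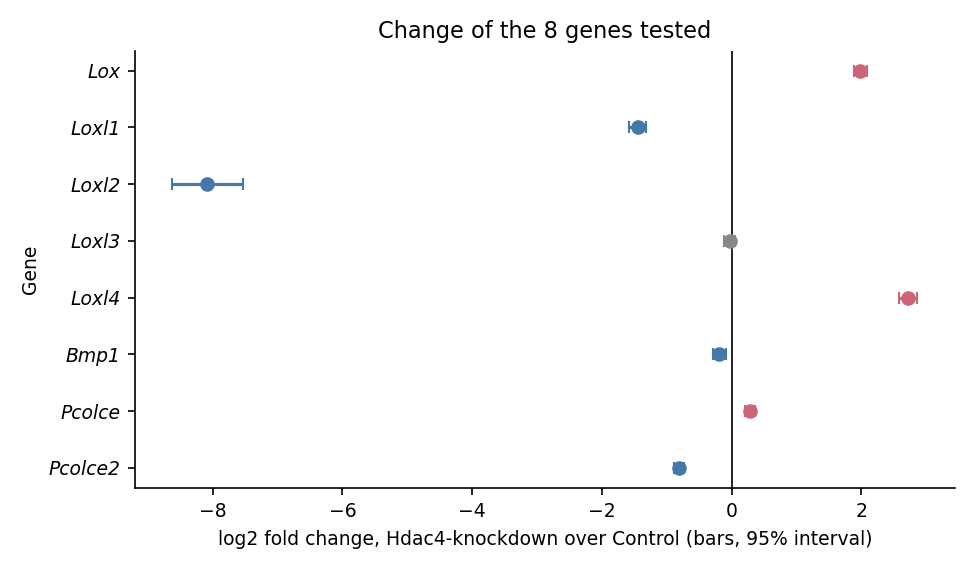
Log2 fold change (Hdac4-knockdown over Control) of the 8 genes tested, with bars for the 95% interval; red marks genes called higher, blue called lower and grey not called. Loxl2 at -8.08 stands far from the other members, and Loxl3 is the gene whose interval includes 0.

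The make-up of the lysyl oxidase transcripts was described per kilobase of exon, so that genes of different length could be set beside each other. Summed over the 5 genes, the level was 133, 135 and 140 CPM per kilobase in Control and 334, 300 and 334 CPM per kilobase in Hdac4-knockdown libraries, a 2.37-fold increase. Lox made up 49.4 ± 1.46% (SD, n = 3) of this sum in Control and 82.4 ± 1.74% in Hdac4-knockdown libraries. Loxl3, at a steady level, went from 27.1 ± 0.517% to 11.2 ± 1.05% of the larger sum. The share of Loxl2 went from 11.2 ± 0.857% to 0.0172 ± 0.00594%, that of Loxl1 from 10.6 ± 0.727% to 1.63 ± 0.198%, and that of Loxl4 from 1.71 ± 0.131% to 4.77 ± 0.515%. Without Lox, the sum of the other 4 genes was 68.8 ± 1.72 CPM per kilobase in Control and 56.7 ± 1.99 CPM per kilobase in Hdac4-knockdown libraries, so the larger total was Lox transcript. These shares are descriptions of chosen genes and were not tested.

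**Figure D3:**
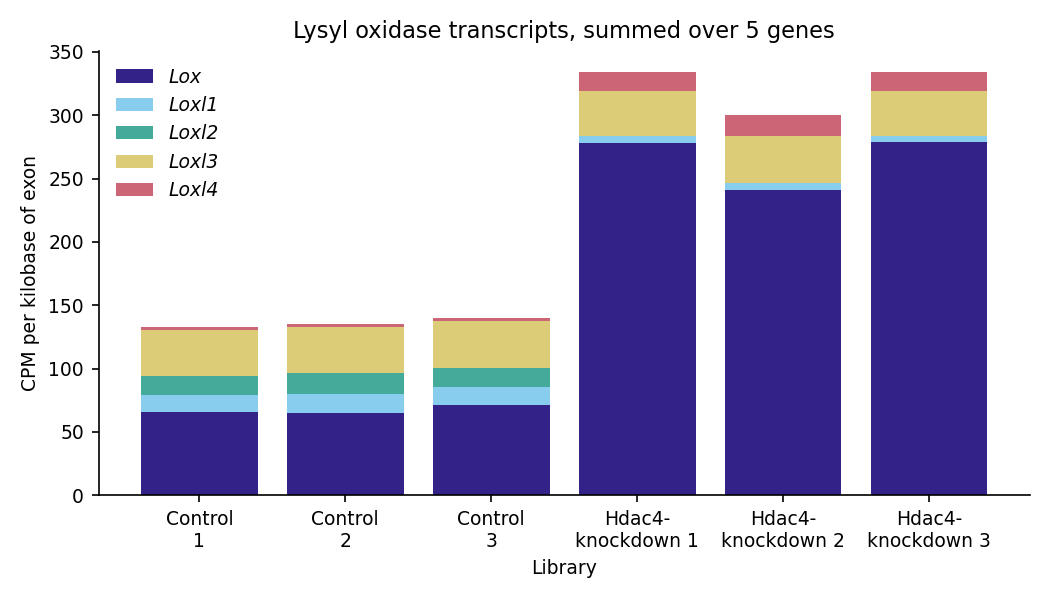
Stacked bars of the 5 lysyl oxidase genes in CPM per kilobase of exon for each of the 6 libraries. The knockdown bars reach 300 to 334 against 133 to 140 in Control, and the Loxl2 band seen in the control bars is too thin to see after knockdown.

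Bmp1, the main procollagen C-proteinase, changed little. Its level was 259, 267 and 256 CPM in Control and 218, 252 and 215 CPM in Hdac4-knockdown libraries, so that the groups did not overlap but knockdown replicate 2 lay close to the control values. Bmp1 had a log2 fold change of -0.19 (SE 0.0511, 95% interval -0.29 to -0.09, adjusted p = 0.00218). The call was lost under upper quartile normalisation (-0.10, adjusted p = 0.077), and the value was -0.27 (adjusted p = 1.38e-06) without Hdac4-knockdown replicate 2. The gene lies at chr14:70474558-70520234 on the minus strand.

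Tll1, the closely related tolloid-like proteinase, was at trace level and was not tested. It had 0, 1 and 4 counts in Control and 10, 8 and 7 counts in Hdac4-knockdown libraries. The knockdown counts were all higher, but with 5 and 25 counts in total no fold change is given from the main test. Tll2 had 1 count in 1 knockdown library and none elsewhere. Bmp1 was therefore nearly the whole of the tolloid proteinase transcript in both groups.

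Pcolce, which binds the C-propeptide and strengthens BMP1 cutting without being a proteinase itself, had the highest level per length of the 9 genes in Control libraries. It rose modestly, from 362, 387 and 383 CPM in Control to 448, 477 and 446 CPM in Hdac4-knockdown libraries. All knockdown libraries were above all control libraries. Its log2 fold change was 0.28 (SE 0.041, adjusted p = 5.73e-06). The gene (chr5:137605103-137613784, minus strand) shares 112 of 3823 exon bases with Gm36266 and Fbxo24, each of which had 22 counts or fewer in every library. Those counts may likewise leave out ambiguous reads on the shared bases.

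Pcolce2, the second enhancer, went the other way. Its level was 132, 134 and 130 CPM in Control and 75.7, 75.3 and 75.7 CPM in Hdac4-knockdown libraries, 57.2% of the control level. The 3 knockdown values were almost identical and all below Control. On the log2 scale Pcolce2 changed by -0.81 with an SE of 0.0424 (adjusted p = 1.19e-12), and the gene (chr9:95637601-95698096, plus strand) shares no exon base with another gene. A two-sided exact permutation test of each of the 7 members whose groups did not overlap gave p = 0.1, the smallest that 3 libraries against 3 allow.

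Set in order per kilobase of exon, the 9 genes ran in Control libraries from Pcolce at 98.7 ± 3.41 CPM per kilobase (SD, n = 3) through Lox at 67.3 ± 3.51, Loxl3 at 36.8 ± 0.507, Bmp1 at 29.4 ± 0.654, Pcolce2 at 28.6 ± 0.443, Loxl2 at 15.3 ± 1.08, Loxl1 at 14.4 ± 0.954 and Loxl4 at 2.32 ± 0.226 to Tll1 at 0.00747 ± 0.00945. The values of Bmp1 and Pcolce2 overlapped between libraries, as did those of Loxl2 and Loxl1. Within each Control library, Bmp1 was slightly above Pcolce2 and Loxl2 slightly above Loxl1. In Hdac4-knockdown libraries Lox came first at 266 ± 21.5 CPM per kilobase, followed by Pcolce at 119 ± 4.54, Loxl3 at 36 ± 1.09, Bmp1 at 25.7 ± 2.29, Pcolce2 at 16.3 ± 0.0452, Loxl4 at 15.3 ± 0.699 and Loxl1 at 5.25 ± 0.381, with Loxl2 at 0.0559 ± 0.0209 and Tll1 at 0.0345 ± 0.00624. Parts of this order depend on the length used. Division by the longest transcript was a choice made after the data were seen. By that measure Bmp1 stood above Loxl3 in Control, at 48.7 ± 1.08 against 41.4 ± 0.569 CPM per kilobase. In Hdac4-knockdown libraries the means were 42.6 ± 3.79 for Bmp1 and 40.5 ± 1.23 for Loxl3, with overlapping libraries. Loxl4 at 17.3 ± 0.788 was no longer below Pcolce2 at 17 ± 0.0471 after knockdown.

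The procollagens that these enzymes act on were mostly higher after knockdown. Of 11 fibrillar procollagen genes, 10 were called higher, against 38% of all genes tested, none was called lower and Col24a1 was not called, and their log2 fold changes had a median of 2.41, against 0.01 over all genes. Col11a1 and Col2a1, collagens of cartilage, rose most on the log2 scale, Col11a1 from 1.08 ± 0.143 to 155 ± 4.03 CPM (log2 fold change 7.16, SE 0.131, adjusted p = 7.42e-23) and Col2a1 from 0.827 ± 0.179 to 51.1 ± 2.4 CPM (log2 fold change 5.93, SE 0.169, adjusted p = 8.21e-20). Col24a1, at a log2 fold change of -0.72 (adjusted p = 0.0579), was called lower (-0.68, adjusted p = 0.0399) when only genes with at least 10 counts in every library were tested. Col3a1 and Col11a2 rose least among those called, with log2 fold changes of 0.23 and 0.60. The summed level of Col1a1, Col1a2 and Col3a1 went from 3242, 3397 and 3377 CPM in Control to 21450, 22272 and 21333 CPM in Hdac4-knockdown libraries, 6.5-fold.

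Set against that sum, Lox, Bmp1 and Pcolce were each at a lower ratio in every knockdown library, although Lox and Pcolce themselves were higher. The ratio of Lox CPM to summed collagen CPM was 0.0972, 0.091 and 0.101 in Control and 0.062, 0.0518 and 0.0625 in Hdac4-knockdown libraries, 1.64-fold lower on the mean of log2 ratios. The ratio of Bmp1 to collagens went from 0.0782 ± 0.00213 to 0.0105 ± 0.00068, 7.44-fold lower, and that of Pcolce to collagens from 0.113 ± 0.00106 to 0.0211 ± 0.000303, 5.37-fold lower. The ratio of Pcolce to Bmp1 went from 1.45 ± 0.0492 to 2.01 ± 0.0976, 1.39-fold. In each of the 4 ratios the groups did not overlap, with p = 0.1 by a two-sided exact permutation test, the smallest possible, and 0.1 after Benjamini-Hochberg adjustment over the 4. The ratios of Lox, Bmp1 and Pcolce to collagens share a denominator that itself rose 6.5-fold. A gene that rose clearly less than the collagens must give a lower ratio, so these outcomes largely restate that rise. The ratios are of CPM, not of molecules, and are read only between groups.

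The other steps of collagen maturation did not all move one way. Of the 3 procollagen N-proteinases, which cut the other end of procollagen, Adamts2 rose from 32.3 ± 2.42 to 102 ± 4.23 CPM (log2 fold change 1.66, adjusted p = 1.27e-15), Adamts14 fell from 59 ± 1.89 to 35.4 ± 1.57 CPM (log2 fold change -0.74, adjusted p = 2.74e-10), and Adamts3 had 0 counts in all libraries. Of the lysyl hydroxylases, which prepare lysines before oxidation, Plod1 fell slightly (log2 fold change -0.19, adjusted p = 0.00114), Plod3 rose (0.35, adjusted p = 3.7e-07), and Plod2, the hydroxylase of telopeptide lysines, had a log2 fold change of 0.03 (adjusted p = 0.64) at 90.8 ± 5.4 and 92.5 ± 4.23 CPM. Colgalt1, a collagen galactosyltransferase, rose (log2 fold change 0.56, adjusted p = 8.81e-10), whereas Colgalt2 had 0 counts in Control and 8, 9 and 0 in Hdac4-knockdown libraries and was not tested. In total 3 genes of these 2 lists were called higher and 2 lower, out of 6 tested, beside 38% and 37.1% of all genes. With upper quartile normalisation Plod1 was no longer called (-0.10, adjusted p = 0.0552) and Plod2 was called higher (0.12, adjusted p = 0.0451), which makes 4 higher and 1 lower. Of the 4 copper genes that supply such enzymes, the Golgi pump Atp7a rose (0.43, adjusted p = 1.1e-06), the chaperone Atox1 fell (-0.32, adjusted p = 0.000214), the importer Slc31a1 was not called (-0.08, adjusted p = 0.128) and Atp7b was too low to test.

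Of 6 genes whose products act beside the tolloids or activate them, 2 were called higher, 2 lower, Furin was not called and Tll2 was not tested, shares close to the 38% and 37.1% of all genes. Furin, which activates the tolloid proenzymes, had a log2 fold change of 0.06 (adjusted p = 0.15), and was called higher with upper quartile normalisation (0.15, adjusted p = 0.00165). Postn, which brings BMP1 and fibronectin together at LOX activation, rose from 11.9 ± 0.908 to 357 ± 10.2 CPM (log2 fold change 4.91, adjusted p = 8.83e-23), and Fn1 from 4065 ± 152 to 7914 ± 252 CPM (0.96, adjusted p = 8.51e-15). Sfrp2, a secreted frizzled-related protein, fell from 9.78 ± 0.331 to 3.4 ± 0.386 CPM (-1.52, adjusted p = 8.89e-10) and Thbs1, a matrix glycoprotein, from 524 ± 16.3 to 350 ± 9 CPM (-0.58, adjusted p = 5.58e-11).

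Among 13 further substrates of BMP1-like proteinases, 7 were called higher, 4 lower, 1 was not called and 1 was not tested, beside 38% and 37.1% of all genes tested, and the median of their log2 fold changes was 0.43, beside 0.01. Upper quartile normalisation called 8 higher and 3 lower. The small proteoglycans that coat collagen fibrils led them, Bgn from 59.5 ± 2.54 to 1659 ± 45.1 CPM (log2 fold change 4.80, adjusted p = 1.6e-23) and Dcn from 11.8 ± 0.793 to 105 ± 5.66 CPM (3.16, adjusted p = 2.67e-19). At the other end was Igfbp3, a binding protein of insulin-like growth factors, with 88, 124 and 90 counts in Control and 2, 0 and 2 in Hdac4-knockdown libraries.

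Elastin, the other main substrate of lysyl oxidases, was all but absent, with 0 counts in every Control library and 2, 0 and 1 in Hdac4-knockdown libraries. Of the 10 genes of elastic fibres and of fibril partners of lysyl oxidase, 6 were called higher, 1 lower and 3 were too low to test, and the median over the 7 tested was 1.63 on the log2 scale, beside 38% and 37.1% of all genes and a median of 0.01. Fmod, which binds LOX on collagen fibrils, went from 1, 0 and 1 counts to 1550, 1755 and 1561 counts, and Lum from 1.96 ± 0.306 to 54.4 ± 3.53 CPM (log2 fold change 4.80, adjusted p = 3.55e-19). Fbn1 rose slightly (0.16, adjusted p = 0.00206) and Ltbp4, a binding protein of latent TGF-β at elastic fibres, fell (-0.40, adjusted p = 1.4e-06).

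**Figure D4:**
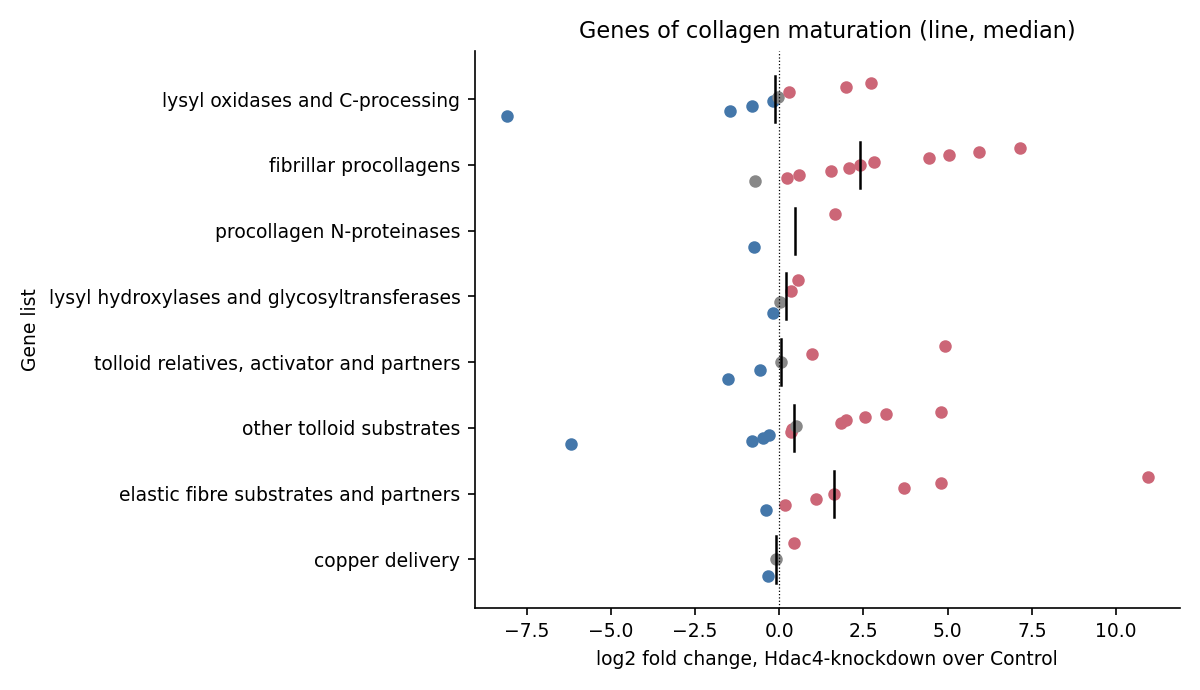
Log2 fold change (Hdac4-knockdown over Control) of every tested gene of the 9-gene group and of 7 lists of collagen maturation, with a line at each list's median; red marks genes called higher, blue called lower and grey not called. The fibrillar procollagens lie furthest to the right as a list, with a median of 2.41, and the fitted values of Fmod and Igfbp3 rest on groups with 2 counts or fewer per library.

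By the root mean square distance of log2 CPM from each gene's own control mean over the 6 libraries, the 3 genes most like Loxl4 among 10824 candidates were Trnp1 (distance 0.0677), Nsg1 (0.106) and Col1a2 (0.114), with log2 fold changes of 2.82, 2.81 and 2.82. The 3 genes most like Loxl2 were Prrg4 (0.335), Krt19 (0.341) and Add2 (0.416), each at 16 counts or fewer in every Hdac4-knockdown library. With 2 groups of 3 libraries, the distance mostly ranks genes by how close their fold changes are.

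Genes around Loxl2 were listed after its values had been seen, as a description. Of the 5 nearest tested genes on either side, 3 were called higher and 4 lower, close to the 38% and 37.1% of all genes, and their log2 fold changes ran from -12.75 to 0.81 with a median of 0.06. R3hcc1, whose start is 1.47 kb from the end of Loxl2, went from 48.1 to 33.9 CPM (log2 fold change -0.51, adjusted p = 9.14e-08), and Slc25a37, 324 kb away on the other side, was at 181 and 177 CPM (-0.04, adjusted p = 0.469). Neither of these flanking genes changed to the extent that Loxl2 did. Beyond Slc25a37 on that side, the neurofilament genes Nefm and Nefl, which overlap each other, were also nearly lost: Nefm went from 181 to 0.359 CPM (-8.99, adjusted p = 8.5e-22) and lies 1.48e+03 kb from Loxl2.

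**Figure D5:**
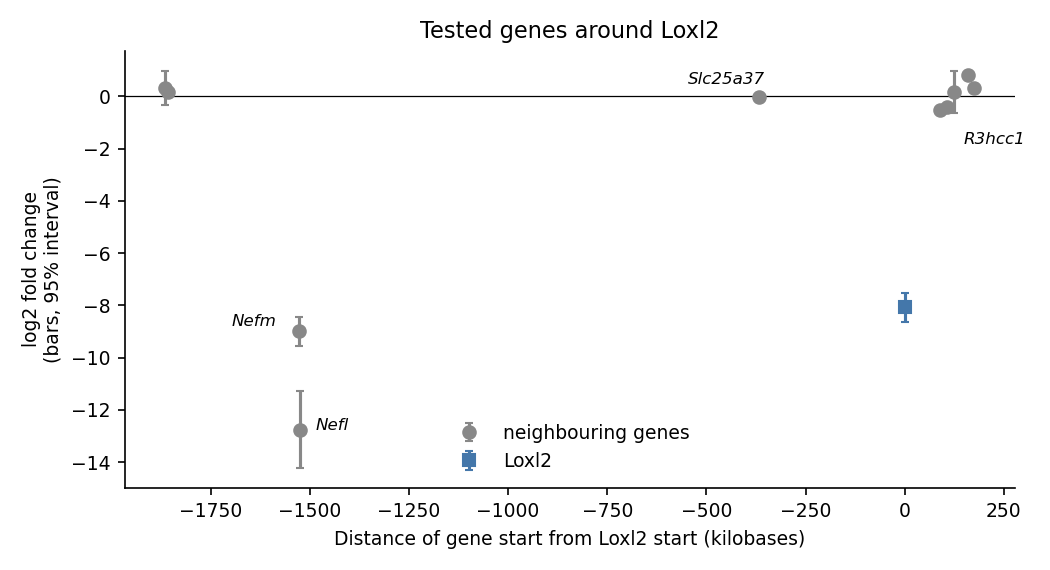
Log2 fold change (Hdac4-knockdown over Control, bars for the 95% interval) of Loxl2 and of the 5 nearest tested genes on either side, by distance of gene starts in kilobases. R3hcc1 next to Loxl2 is at -0.51, whereas Nefm and Nefl far to the left are below Loxl2; the fitted value of Nefl rests on near-zero knockdown counts.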

How the data were processed

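RNA of 3 Control and 3 Hdac4-knockdown cultures was sequenced from poly-A selected, unstranded paired-end libraries. The authors deposited raw counts per Ensembl gene for each library, and the submitters' processing notes name FastQC, STAR 2.7.3a, HTSeq 0.12.4 and mm10; the annotation used for counting is not given in the sources used here. Summary lines for reads assigned to no counted feature (3.17% to 5.07% of each library's reads), ambiguous reads and multiply aligned reads were left out of library sizes and tests. Groups and replicate numbers came from the sample titles. The design text calls the libraries biological replicates, and whether they came from separate infections is not stated, so p-values measure the spread between these samples.

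The groups were set against each other in edgeR 4.0.16 (R 4.3.3) by its quasi-likelihood test, with TMM normalisation, the filterByExpr filter and Benjamini-Hochberg adjustment over 14531 genes, and 95% intervals were taken from the standard error of that fit. Levels per length use the union of exons of GENCODE M21 (GRCm38), which also gave symbols, positions and sequences. The same edgeR fit was repeated with the size factors of DESeq2, with upper quartile scaling, with library size as the only scaling, with a filter of 10 counts in each library or with almost none, with a replicate block, and with each library removed. DESeq2 1.42.0, limma-voom (limma 3.58.1), log2 thresholds of 0.5 and 1 and other gene lengths were also tried. Genes named are the 9 members, Hdac4, every gene of the N-proteinase, lysine modification and copper lists, Tll2, the 2 highest and 2 lowest called genes of every other list, and the 3 genes most like Loxl2 and Loxl4; genes near Loxl2 and those sharing exons were added after values were seen. A gene that this rule names among the tolloid substrates is not reported here. The members and lists were chosen with earlier results of these data known. Replicates of a group differed by more than sampling noise, and same-numbered libraries did not deviate together (correlations -0.0111, 0.027 and 0.0166), so the numbers were not used as pairs.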

Additional observations from a re-analysis of the deposited data

Results flagged for a closer look

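Tll1 had too few counts for the main test, and its 25 counts summed over the Hdac4-knockdown libraries lay above the 5 counts summed over the Control libraries, with each knockdown library above each control library. With no filter on low counts, edgeR gave Tll1 a log2 fold change of 2.14 (adjusted p = 0.0364), and DESeq2 gave 2.22 (adjusted p = 0.0892).

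Reads assigned to no counted feature enter no comparison above. They made up 4.64% to 5.07% of the reads of Hdac4-knockdown libraries and 3.17% to 3.41% of the reads of Control libraries. Whether they lie between genes or in introns is not given. Their part in the values of the 9 genes was not tested.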

How the results depend on the processing

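Of the 9 genes, 3 were called higher and 4 lower in the main test, and the removal of any 1 library gave 3 and 4 each time. Upper quartile normalisation called 3 lower, since Bmp1 was lost (-0.10, adjusted p = 0.077), and the filter of at least 10 counts in every library also called 3 lower, since it left Loxl2 out of the test. With no filter on low counts, 4 members were called higher, Tll1 among them. Members called lower numbered 2 beyond a log2 fold change of 1. Over all genes, thresholds of 0.5 and 1 left 3579 and 2397 called higher and 2879 and 1543 called lower. Loxl3, never called, changed sign with library size alone (0.03), upper quartile (0.06) and at least 10 counts in every library (0.01). The log2 fold change ranged over all alternatives from 1.95 to 2.07 for Lox, -1.50 to -1.36 for Loxl1, -8.41 to -7.91 for Loxl2, 2.65 to 2.81 for Loxl4, 0.24 to 0.36 for Pcolce and -0.83 to -0.72 for Pcolce2, and each of these kept its call at the threshold of 0.05 wherever it was tested. Pcolce and Bmp1 were lost beyond a log2 fold change of 0.5 and Pcolce2 beyond 1. Ratios between genes do not depend on the normalisation. The control share of Lox among lysyl oxidase transcripts was 47.8% with the longest transcript of each gene and 51% with no division by length. With the replicate block, 3 members were called higher and 4 lower, and 5523 and 5441 of all genes, so the block changed no call of a member. Depth limits the values of Loxl2 after knockdown and of Tll1, which rest on 13 counts or fewer per library.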
